A study of Mus musculus with 21 samples.

Results

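The genes described here belong to the Notch pathway: the receptors Notch1, Notch2 and Notch3, the ligand Jag1 and the target genes Hes1, Hey1 and Hey2. They were picked by name from the gene column of 3 deposited RNA sequencing tables. Of the 7 genes named, 6 were found: Notch1, Notch2, Notch3, Jag1 and Hes1 in all 3 tables, and Hey2 in both tables of reprogramming cells. Hey1 was not analysed here. The tables together list 12404 genes.

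Notch receptors sit in the cell membrane and bind ligands such as Jag1 on neighbouring cells. Binding lets ADAM proteases and then gamma-secretase cut the receptor, and the freed intracellular part enters the nucleus, where it joins the DNA-binding protein RBPJ and switches on target genes, among them the transcriptional repressors of the Hes and Hey families. In mesenchymal tissue the pathway is best known in vascular smooth muscle and pericytes, where Notch3 is the characteristic receptor.

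The cells were mouse embryonic fibroblasts (MEFs) of ICR embryos at day 13.5, used at passage 2, either as such or turned toward pluripotency with retroviruses for Sox2, Klf4, Oct4 and Myc (SKOM cells, collected on day 5). SKOM cells grew in embryonic stem cell medium with vitamin C (Vc+) or without it (Vc-). All groups had received retroviral constructs for 48 hours. In each SKOM medium the 7 libraries carried Tet1CD, Tet1CD with Dnmt1, Tet1CD with shDnmt1, shp53 with shDnmt1, shDnmt1 alone, Dnmt1 alone, or the control pair of Flag and shLuc. The 7 MEF libraries carried Tet1-CD, shp53 with shDnmt1, shp53 alone, shDnmt1 alone, Dnmt1 alone, the control pair, or the control pair in cells labelled 5C, a name the labels do not explain. The heading of the 5C column, X5CDay4, names a day, which the headings of the other MEF libraries do not. Tet1CD holds sequence of Tet1, an enzyme that oxidises methylated cytosine, Dnmt1 maintains DNA methylation at cell division, and shp53 and shDnmt1 are hairpins against Trp53 and Dnmt1. Each combination had 1 library, the labels name no separate cultures, and in SKOM cells shp53 came only together with shDnmt1, so a p-value reflects nothing but the scatter among these libraries once construct effects are taken as additive.

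The authors deposited whole numbers already scaled within each table, and sequencing depth is unknown. Tet1 stood at 2140 to 3129 in the 6 SKOM libraries with Tet1CD, against 11 to 88 in the 8 without it, and it is not listed for MEFs, so the MEF Tet1CD library has no such check. Trp53 stood at 157 and 186 in MEFs with shp53, against 1008 in the control and 966 with shDnmt1 alone, and in SKOM cells the hairpin left more of it, 621 (Vc+) and 453 (Vc-) against 1304 and 810 with shDnmt1 alone. Dnmt1 was not raised in the libraries labelled Dnmt1, with 975 against 957 in the MEF control, 2381 against 2346 in Vc+ cells and 1001 against 984 in Vc- cells. With shDnmt1 alone Dnmt1 was lowered in part, to 208 against 957 in MEFs, 1154 against 2346 in Vc+ cells and 527 against 984 in Vc- cells. Tet1CD alone was also beside lower Dnmt1 in Vc+ cells (1080) and MEFs (458), with 967 in Vc- cells. With shp53, Dnmt1 was higher in every pair. In MEFs it stood at 1622 against 957 in the control, and at 410 with shp53 and shDnmt1 against 208 with shDnmt1 alone. In SKOM cells the values with and without shp53 beside shDnmt1 were 1319 against 1154 (Vc+) and 726 against 527 (Vc-). The part of this in the shp53 comparisons was not tested. The 5C library stood apart from all others and is given separately. Of 12 fibroblast markers all were listed in MEFs. Of 12 pluripotency markers none was listed in MEFs or Vc- cells and 3 in Vc+ cells, and of 10 endothelial markers 2 were listed in each table.

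Because Tet1CD acts on methylated cytosine, which in mammals lies mostly in CG dinucleotides, the promoters of the genes with the clearest Tet1CD or shp53 differences are shown first, with each CG in capitals. The windows hold the 250 bases before the RefSeq start of each gene, on the gene's own strand, in the build GRCm38.p6. They lie at chr17:32166891-32167140 (minus strand) for Notch3, chr2:26503823-26504072 (minus strand) for Notch1 and chr10:30842784-30843033 (minus strand) for Hey2.
Notch3: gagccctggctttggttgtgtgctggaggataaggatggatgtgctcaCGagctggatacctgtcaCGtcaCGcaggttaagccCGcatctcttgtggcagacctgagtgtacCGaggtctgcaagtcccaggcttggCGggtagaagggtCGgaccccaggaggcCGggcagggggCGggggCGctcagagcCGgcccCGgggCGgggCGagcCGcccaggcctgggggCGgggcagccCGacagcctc
Notch1: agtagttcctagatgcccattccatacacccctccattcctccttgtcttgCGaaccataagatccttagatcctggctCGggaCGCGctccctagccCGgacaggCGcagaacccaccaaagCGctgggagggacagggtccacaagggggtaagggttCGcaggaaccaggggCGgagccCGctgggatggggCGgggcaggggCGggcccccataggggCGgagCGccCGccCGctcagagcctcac
Hey2: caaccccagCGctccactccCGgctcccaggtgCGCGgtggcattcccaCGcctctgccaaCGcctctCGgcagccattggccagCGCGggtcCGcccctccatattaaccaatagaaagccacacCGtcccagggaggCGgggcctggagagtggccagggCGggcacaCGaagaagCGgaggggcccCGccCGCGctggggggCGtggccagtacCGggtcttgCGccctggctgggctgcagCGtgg
Notch3 has 17 CG dinucleotides in its window, Notch1 16 and Hey2 22, and the windows not printed hold 34 for Notch2 and 20 for Jag1. The median over all 27025 windows was 6, and between 74.4% and 96.6% of windows held fewer than these genes. All 5 promoters were thus above the middle of the range in CG, whether the gene was called higher or lower with Tet1CD in Vc+ cells or, as Notch2, not called. DNA methylation was not examined here. The core of the RBPJ motif, TGGGAA, was searched on both strands and occurred in 21.5% of windows. Among these 5 genes only the Hey2 window holds it, once, on the strand opposite to the one printed, 207 bases before the start. The E-box CACGTG, a letter string bound by Hes and Hey proteins among other factors, was in 6.05% of windows and the p53 half-site in 7.18%, and neither was found in the 5 windows. A match of letters describes the sequence only. Hes1 and Hey1 were not matched.

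Notch2 was the most abundant of the receptors per length in every setting. Divided by the length of the transcript that the tables name for the gene, its median value was 110 per kb in Vc+ cells, 81.4 per kb in Vc- cells and 57.0 per kb in MEFs. Notch3 followed with medians of 34.3, 27.5 and 35.3 per kb in Vc+ cells, Vc- cells and MEFs, and Notch1 with 32.2, 19.8 and 23.3 per kb. The ranges of Notch3 and Notch1 overlapped in each setting, so their order is not settled, whereas the lowest Notch2 library of each SKOM table, at 102 per kb (Vc+) and 71.0 per kb (Vc-), lay above the highest Notch3 library, at 69.1 and 28.6 per kb. The ligand Jag1 stood at medians of 82.5, 71.1 and 41.9 per kb. Hes1 stood at 87.2, 72.9 and 174 per kb in the same order, the highest median of the 5 genes in MEFs once divided by length. Undivided, Notch2 had the highest MEF median, at 598 against 255 for Hes1. Whether the deposited values already allow for length is not known, so the order of these genes in MEFs is not settled. Hey2 at 20.4 per kb in Vc+ and 40.4 per kb in Vc- cells was below Notch2 and Jag1 in every SKOM library. The tables were normalized separately, so a level in one is not on the same scale as a level in another.

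**Figure D1:**
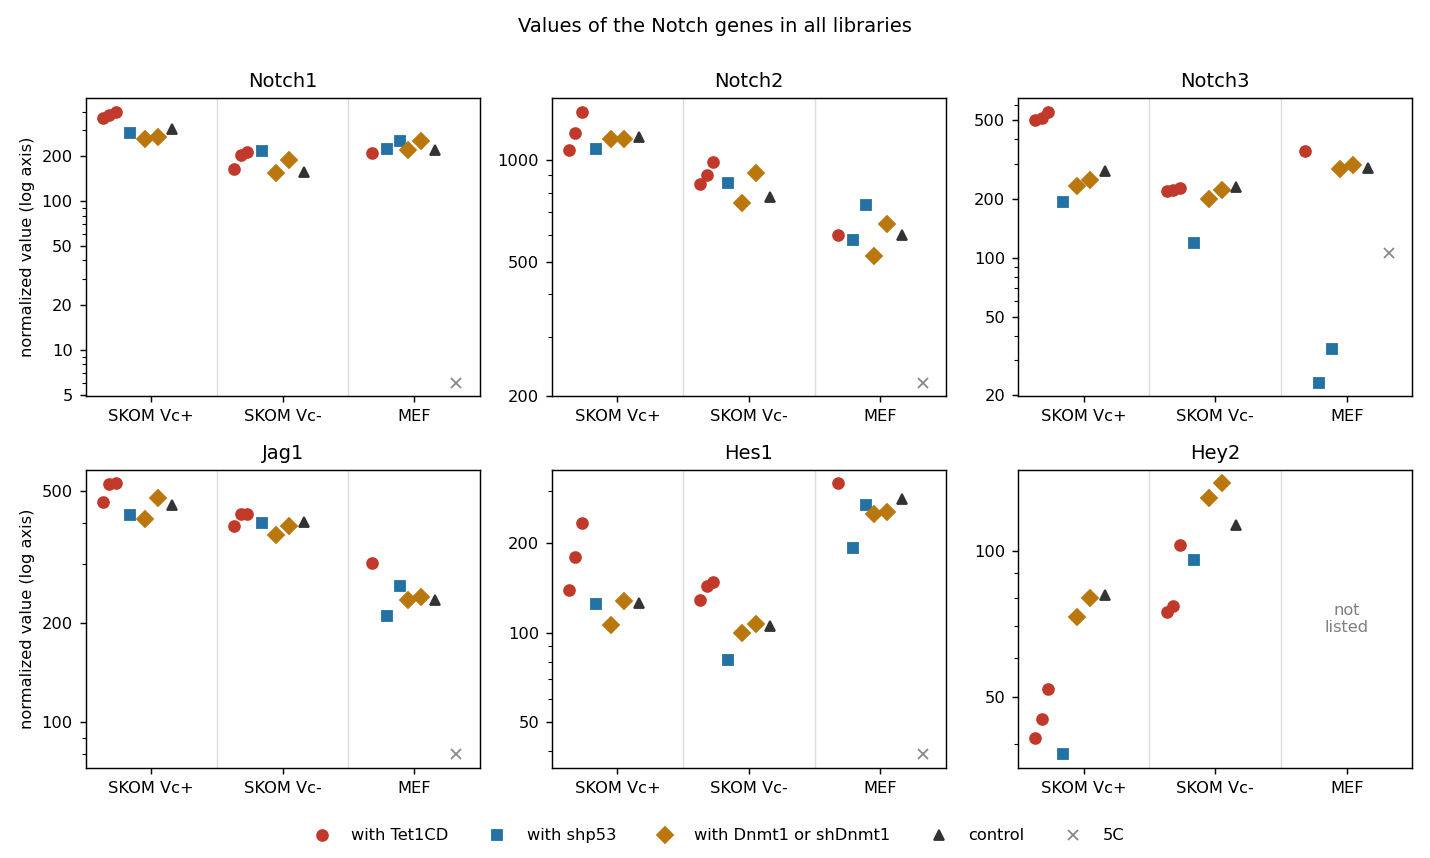
Normalized value (log axis) of the 6 genes in all 21 libraries, with the settings SKOM Vc+, SKOM Vc- and MEF side by side and 1 point per library. In Vc+ cells the 3 red Tet1CD points of Notch3 lie between 500 and 554, above every other Vc+ library, and in MEFs the 2 blue shp53 points of Notch3 lie at 23 and 34; the tables were normalized separately, so only points within a setting share a scale.

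With vitamin C, SKOM cells that carried Tet1CD had more Notch3, Notch1, Hes1 and Jag1 RNA and less Hey2 RNA than cells without it, and Notch2 did not pass the test. Notch3 (ENSMUSG00000038146, chromosome 17, 32120820 to 32166880, minus strand, mm10) encodes the receptor of vascular mural cells. Its value was 500 with Tet1CD, 554 with Tet1CD and Dnmt1 and 517 with Tet1CD and shDnmt1, against 193 with shp53 and shDnmt1, 233 with shDnmt1, 250 with Dnmt1 and 275 in the control. The 3 libraries with Tet1CD lay far above the 4 without, and the groups did not overlap. In a linear model over the 14 SKOM libraries on log2(value + 5), limma gave a Tet1CD change of 0.98 ± 0.10 (log2, SE) with a Benjamini-Hochberg adjusted p of 6.19e-06.

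Notch1 (ENSMUSG00000026923, chromosome 2, 26457903 to 26503822, minus strand), the receptor first found in T-cell leukaemia, showed the same order in Vc+ cells at a smaller size. It stood at 379 with Tet1CD, 365 with Tet1CD and Dnmt1 and 400 with Tet1CD and shDnmt1, against 288 with shp53 and shDnmt1, 270 with shDnmt1, 261 with Dnmt1 and 305 in the control. Again every library with Tet1CD was above every library without, and the change was 0.49 ± 0.10 (limma, adjusted p = 0.000899). Notch2 (ENSMUSG00000027878, chromosome 3, 98013538 to 98150367, plus strand) averaged 1219 ± 162 with Tet1CD (SD, n = 3) and 1138 ± 40.8 without it (SD, n = 4). Its highest and its lowest Vc+ value, 1388 and 1066, were both in libraries with Tet1CD, so the groups overlapped, with a fitted change of 0.09 ± 0.10 (limma, adjusted p = 0.454).

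The ligand gene Jag1 (ENSMUSG00000027276, chromosome 2, 137081456 to 137116644, minus strand) averaged 505 ± 36.1 in Vc+ cells with Tet1CD (SD, n = 3) and 441 ± 29.3 without it (SD, n = 4). The groups overlapped, since the Tet1CD and Dnmt1 library at 463 was below the shDnmt1 library at 476. The model gave 0.19 ± 0.06 (limma, adjusted p = 0.0215), the smallest change among the genes that passed, and the call was lost when the Vc+ table was fitted alone (adjusted p = 0.145). It was also lost without the Vc+ library of Tet1CD alone, of Dnmt1 alone or of the control (limma, adjusted p = 0.0527 to 0.0594).

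Hes1 (ENSMUSG00000022528, chromosome 16, 30065340 to 30067796, plus strand) encodes a repressor of the basic helix-loop-helix class and is a direct target of Notch in many tissues. In Vc+ cells it stood at 234 with Tet1CD, 180 with Tet1CD and Dnmt1 and 139 with Tet1CD and shDnmt1, against 125 with shp53 and shDnmt1, 128 with shDnmt1, 106 with Dnmt1 and 126 in the control. All 3 libraries with Tet1CD were above the 4 without, though they spread over a wider range than those did. The change was 0.52 ± 0.14 (limma, adjusted p = 0.00718), and without the Tet1CD library at 234 it was 0.36 with an adjusted p of 0.0527.

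Hey2 (ENSMUSG00000019789, chromosome 10, 30832359 to 30842801, minus strand), a related repressor known from arterial and cardiac cells, went the other way. It stood at 41 with Tet1CD, 45 with Tet1CD and Dnmt1 and 52 with Tet1CD and shDnmt1, against 38 with shp53 and shDnmt1, 80 with shDnmt1, 73 with Dnmt1 and 81 in the control. The 3 libraries with Tet1CD were below each library without it except the one with shp53, which was the lowest of all, so the groups overlapped. The model, which gives shp53 a term of its own, put the Tet1CD change at -0.64 ± 0.15 (limma, adjusted p = 0.00373).

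In all, 4 of the 6 genes rose with Tet1CD in Vc+ cells and 1 fell, in a comparison where 24.8% of the 10711 genes tested were called higher and 31.6% lower, 56.4% in either direction. Groups without overlap, seen for Notch3, Notch1 and Hes1, occurred in 56.2% of genes, upward in 25%. The median change of the 6 genes was 0.34, beside -0.07 over all genes. So being called was common among all genes in this comparison, and a call by itself does not set these genes apart.

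Without vitamin C, Hes1 rose and Hey2 fell with Tet1CD, and none of the receptors nor Jag1 passed the test. Hes1 stood at 143, 148 and 129 with Tet1CD alone, with Dnmt1 and with shDnmt1, against 81 with shp53 and shDnmt1, 107 with shDnmt1, 100 with Dnmt1 and 105 in the control. The groups did not overlap, and the change was 0.46 ± 0.14 (limma, adjusted p = 0.0450). That value sat at the edge of the threshold: with 1 library left out at a time, 4 of 14 fits kept the call, those without the Vc- or the Vc+ shDnmt1 library, the Vc+ Tet1CD library or the Vc+ library of Tet1CD and shDnmt1. The change stayed between 0.38 and 0.55.

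Hey2 in Vc- cells stood at 103, 75 and 77 with Tet1CD alone, with Dnmt1 and with shDnmt1, against 96 with shp53 and shDnmt1, 138 with shDnmt1, 129 with Dnmt1 and 113 in the control. Only the shp53 library overlapped with those carrying Tet1CD. The change was -0.63 ± 0.15 (limma, adjusted p = 0.0172), and 10 of 14 fits with 1 library left out kept the call, the exceptions being the Vc- libraries of Dnmt1 and shDnmt1, each with and without Tet1CD (adjusted p up to 0.104). Notch3, by contrast, stood at 218, 222 and 226 with Tet1CD, against 220, 198 and 229 in the shDnmt1, Dnmt1 and control libraries, with the shp53 and shDnmt1 library alone lower at 119. Its change was 0.10 ± 0.10 (limma, adjusted p = 0.551). Notch1 averaged 195 ± 26.7 with Tet1CD (SD, n = 3) and 180 ± 29.1 without it (SD, n = 4), and the groups overlapped, as did those of Notch2 and Jag1.

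Thus 2 of 6 genes were called in Vc- cells, 1 in each direction, where 7.63% of all genes were called higher and 7.97% lower, 15.6% in either direction. Hes1 was the 1 gene of the 6 whose groups did not overlap, which held for 31% of all genes, upward for 15.3%. The median change was 0.12 over the 6 genes and -0.01 over all genes.

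The difference between media was tested directly, as the Tet1CD change in Vc+ cells minus that in Vc- cells, each taken within its own table. It was 0.88 ± 0.14 for Notch3 (limma, adjusted p = 0.000985), and in that test 22.9% of all genes were called, 11.2% upward. Notch3 kept this call in every alternative model and every fit with 1 library left out. None of the other 5 genes passed: the next was Notch1 at 0.31 ± 0.13 (limma, adjusted p = 0.103), and the differences of Hes1 and Hey2 were 0.06 ± 0.19 and -0.01 ± 0.21 (limma, adjusted p = 0.840 and 0.988).

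**Figure D2:**
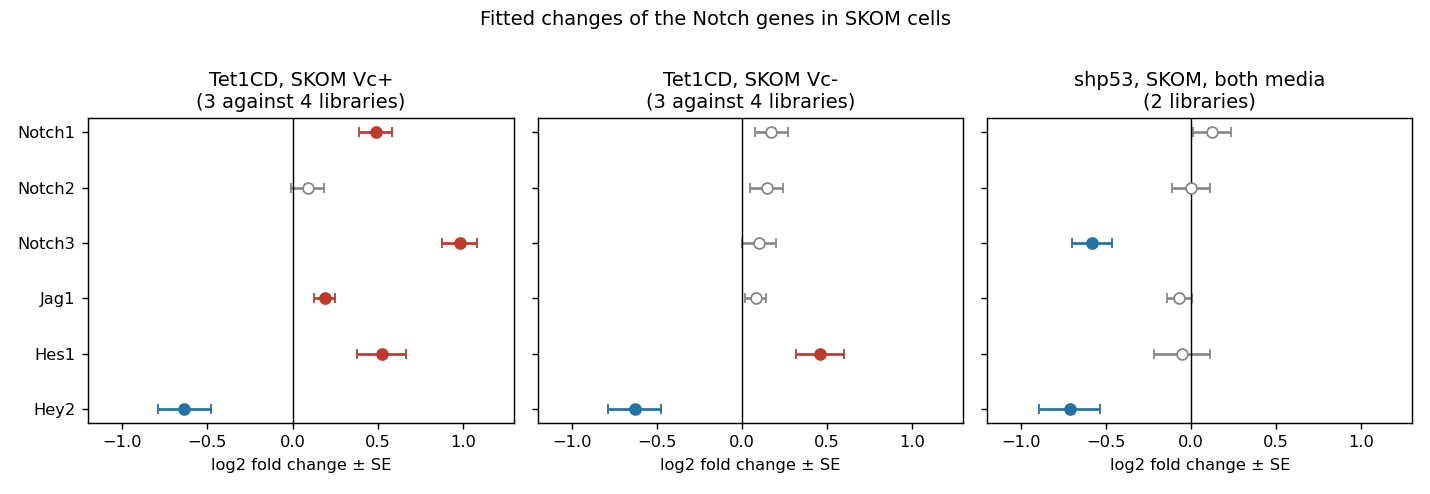
Fitted log2 fold change with its standard error (horizontal bars) of the 6 genes for Tet1CD in Vc+ cells, Tet1CD in Vc- cells and shp53 in SKOM cells of both media. Filled points passed an adjusted p of 0.05 (red higher, blue lower) and open points did not; Notch3 stands at 0.98 in Vc+ cells and at 0.10 in Vc- cells, while Hey2 is near -0.64 and -0.63.

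Markers of other cell types moved with Tet1CD as well. The counts of markers called stand against 24.8% of all genes higher and 31.6% lower in Vc+ cells. In Vc- cells these shares were 7.63% and 7.97%. Of 7 smooth muscle and pericyte markers fitted, 6 rose with Tet1CD in Vc+ cells and 1 in Vc- cells. Over the 8 markers listed, their summed value in Vc+ cells was 22263 to 22747 with Tet1CD and 5122 to 11480 without it, and over the 7 listed in Vc- cells it was 22641 to 22794 with Tet1CD and 6930 to 22281 without it. Most of these sums is Acta2, smooth muscle actin, which is also made by cultured fibroblasts and which stood at the same value of 19681 in 6 of the 7 Vc- libraries, so the Vc- sums are limited by a ceiling. Of 11 fibroblast markers 8 rose and 1 fell in Vc+ cells, and 2 rose and 1 fell in Vc- cells. The 3 macrophage markers fitted, Ptprc, Laptm5 and Cd68, rose in both media, and the summed values of the 4 listed in Vc+ cells were 1952 to 2614 with Tet1CD and 293 to 369 without, beside 541 to 633 and 258 to 337 for the 3 listed in Vc- cells. Of 5 epithelial markers 4 fell with Tet1CD in Vc+ cells and 1 in Vc- cells, with sums of the 6 listed in Vc+ cells of 555 to 590 with Tet1CD and 799 to 1538 without, and of the 5 listed in Vc- cells of 286 to 331 and 384 to 564. Of the 3 pluripotency markers listed in Vc+ cells, Nr0b1 had 2 to 5 with Tet1CD and 36 to 88 without, Tdh 6 to 18 and 70 to 116, and Dppa2 39 to 46 and 0 to 4. No listed gene is low in all libraries of its table, so a gene this low in 1 group is listed only because it is higher in the other. The contrasts of these 3 genes are therefore partly set by the listing. Of 2 endothelial markers fitted, Emcn rose (0.86 ± 0.14) and Tek fell (-0.57 ± 0.08) in Vc+ cells (limma, adjusted p = 0.000169 and 5.58e-05). Neither passed in Vc- cells. Adgre1 and Csf1r, which define macrophages, were among those with no value in the SKOM tables. The part of these cells in the Notch values was not tested, and in bulk RNA fewer cells of a type and less RNA per cell cannot be told apart.

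In MEFs, Notch3 was far lower with the p53 hairpin, and the other Notch genes were not. Notch3 had a value of 23 with shp53, against 285 in the control, and 34 with shp53 and shDnmt1, against 283 with shDnmt1 alone. That is 12.4-fold and 8.32-fold lower, or -3.37 and -2.89 on the log2(value + 5) scale. The libraries with Dnmt1, at 295, and with Tet1-CD, at 350, were near or above the control. The 5C library, given separately, had 106. Apart from 5C, both low libraries were those with shp53. Of 11151 genes, 6, Notch3 included, were in both pairs at or below the weaker Notch3 ratio of -2.89. A log2 ratio of at least 0.58 downward in both pairs was found for 6.46% of genes and in either direction for 12.7%, and Notch3 was the 1 of the 5 listed genes that reached it. The MEF ratios rest on 1 library per combination and were not tested.

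For the other receptors the shp53 ratios were 0.20 and 0.04 for Notch1 and 0.29 and 0.15 for Notch2, in the pair without shDnmt1 and the pair with it. Jag1 gave 0.14 and -0.20. Hes1 gave -0.54 and 0.09, with values of 192 against 282 in one pair and 268 against 251 in the other, so the pairs did not share a direction. Smooth muscle and pericyte markers summed to 49271 with shp53 and 49524 with shp53 and shDnmt1, against 52614 in the control and 50660 with shDnmt1. In all 4 libraries Acta2 stood at the highest value of the table, 38803, so these sums are limited by a ceiling. Of the 8 markers 6 were lower with shp53 in both pairs and 1, Cspg4, was higher, and Des, Myh11 and Rgs5 were lower by at least 0.58 (log2) in both. Des had 62 with shp53 and 119 with shp53 and shDnmt1, against 258 in the control and 287 with shDnmt1. The fibroblast markers summed to 95781 and 108671 with shp53, against 130214 and 138462. These sums are limited by the same ceiling, with Fn1 at 38803 in all 4 libraries. Col1a2 had 15125 and 19849 with shp53, against 38803 in the control and with shDnmt1. Of the 12 markers 8 were lower in both pairs and 1 was higher, and 2 were lower by at least 0.58 in both. Over all genes 6.46% were lower by that much in both pairs. The part of these markers in the Notch3 values was not tested.

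In SKOM cells, shp53 together with shDnmt1 was set against shDnmt1 alone. Notch3 stood at 193 against 233 in Vc+ cells and at 119 against 220 in Vc- cells, and in both tables the shp53 library was the lowest of all 7. Hey2 stood at 38 against 80 in Vc+ cells and at 96 against 138 in Vc- cells, the lowest of the 7 in Vc+ cells only. Both genes were thus lower with the hairpin in both media.

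The model over both media gave -0.58 ± 0.12 for Notch3 and -0.71 ± 0.18 for Hey2 (limma, adjusted p = 0.0192 and 0.0435). These are 2 of 6 genes lower, where 3.21% of all genes were called lower and 4.23% in either direction. Notch1, Notch2, Jag1 and Hes1 lay between -0.07 and 0.12 and did not pass. The Notch3 call rested on the Vc- libraries: without the Vc- library of shp53 and shDnmt1 the change was -0.36 (adjusted p = 0.260), and without the Vc- library of shDnmt1 it was -0.52 (adjusted p = 0.086). The Hey2 call was kept in 4 of 14 fits with 1 library left out, those without the control or the Tet1CD library of Vc- cells, or without the Tet1CD library or that of Tet1CD and shDnmt1 of Vc+ cells. Its changes ran between -0.999 and -0.43. Whether the effect on Notch3 differs between MEFs and SKOM cells was not tested. Of 7 smooth muscle and pericyte markers fitted, 4 fell with shp53 in SKOM cells (Acta2, Des, Cnn1 and Tagln), and the part of this in the Notch3 and Hey2 values was not tested.

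**Figure D3:**
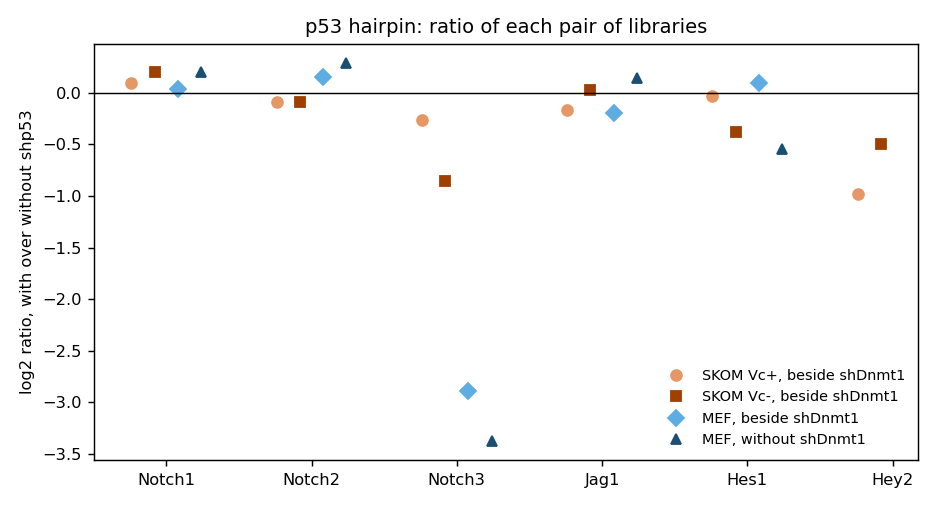
Log2 ratio, on values + 5, of each pair of libraries with over without shp53 for each gene, in SKOM Vc+, SKOM Vc- and MEFs beside shDnmt1 and in MEFs without shDnmt1. Notch3 lies at -3.37 and -2.89 in MEFs and at -0.86 and -0.27 in SKOM cells, while Notch1 and Notch2 stay within 0.29 of the zero line; Hey2 has values in SKOM cells only.

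The constructs for Dnmt1 left the Notch genes without a call. In the SKOM model, where the hairpin lowered Dnmt1 in part, shDnmt1 called 0 of the 6 genes and 0.056% of all genes, and the changes ran from -0.21 for Hes1 to 0.06 for Notch1. The libraries labelled Dnmt1 gave 0 calls among the 6 and 0 of 10711 genes by limma. An unadjusted p under 0.05 was found for 258 genes, a share that is itself below 0.05. Jag1 was among them at -0.14 ± 0.06, which does not set it apart. In MEFs no Notch gene reached a log2 ratio of 0.58 in both shDnmt1 pairs, as 1.49% of genes did, and none did in the Dnmt1 library, as 3.06% did. MEF Tet1-CD, set against the control, Dnmt1 and shDnmt1 libraries, gave median log2 ratios of 0.36 for Jag1, 0.31 for Hes1, 0.29 for Notch3, -0.01 for Notch2 and -0.07 for Notch1. None passed 0.58 in all 3 ratios, as 5.45% of genes did.

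The library labelled 5C had less of all 5 genes than the MEF control with the same constructs. Notch1 stood at 6 against 221, Hes1 at 39 against 282, Jag1 at 80 against 235, Notch2 at 219 against 601 and Notch3 at 106 against 285. The log2 ratios ran from -4.36 for Notch1 to -1.39 for Notch3, where 38.1% of genes were lower by at least 0.58 and 68.1% differed by that much in either direction. The size of the Notch1 ratio rests on the low value of 6. It was -4.99 with a pseudocount of 1 and -3.21 with a pseudocount of 20. All 8 smooth muscle and pericyte markers were lower in 5C, with a sum of 5689 against 52614, and all 5 macrophage markers listed were higher, with a sum of 4621 against 228. Of 12 fibroblast markers 5 were higher by at least 0.58 and 2 lower. The part of these markers in the Notch values was not tested. What 5C stands for is not given, its heading names a day that the MEF control lacks, and its value distribution differed from that of the other libraries.

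Values across tables were compared as log2 ratios of libraries with the same constructs, each centred on the median gene of that pair, and without a test. Before centring, the median gene was 0.52 to 0.57 higher in Vc+ than in Vc- libraries. Hey2 was lower in Vc+ than in Vc- cells in all 7 pairs, with a centred median of -1.32 (range -1.80 to -1.03), and 0.215% of genes were lower in all pairs by a median of at least 1 (0.607% in either direction). Uncentred, the Hey2 median was -0.75, also lower in 7 of 7 pairs. Notch3 split by construct: its centred ratios were 0.65 to 0.78 in the 3 pairs with Tet1CD and -0.49 to 0.11 in the 4 pairs without it. Jag1 had a centred median of -0.29 in 7 of 7 pairs, which turned to 0.24 without centring. Notch1, Notch2 and Hes1 had medians of 0.35, -0.03 and -0.32 with pairs on both sides of 0, and without centring the medians of Notch2 and Hes1 turned to 0.49 and 0.25.

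Hes1 was lower in SKOM cells than in MEFs in all 5 pairs of each medium. The centred medians were -1.36 in Vc+ cells and -1.04 in Vc- cells, where 10.8% and 7.46% of genes were lower in all pairs by a median of at least 1 (17.5% and 13.5% in either direction). Notch2 and Jag1 were higher in all 5 pairs of each medium, with medians of 0.65 (Vc+) and 0.86 (Vc-) for Notch2 and 0.63 and 0.97 for Jag1, short of 1. With the values quantile normalized instead of centred, the Jag1 median in Vc- cells was 1.02. Notch1 had a centred median of 0.05 in both media. Without centring its median in Vc- cells was -0.22, lower in all 5 pairs. Notch3 had medians of -0.35 and -0.08, and its highest pair, at 2.05 and 1.97, was the one with shp53 and shDnmt1, where the MEF value was 34.

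Other genes of the pathway changed with Tet1CD in both directions. Outside the genes above, 50 of 66 listed pathway genes were fitted, and in Vc+ cells 12 rose and 13 fell, in Vc- cells 8 rose and 3 fell. Over all genes tested 24.8% rose and 31.6% fell in Vc+ cells, and 7.63% rose and 7.97% fell in Vc- cells, and the counts of the groups that follow stand against the same shares. The median changes of the 50 genes were -0.03 in Vc+ and 0.07 in Vc- cells, beside -0.07 and -0.01 over all genes.

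Of the remaining receptors and ligands, 4 were fitted, and Notch4, the endothelial receptor, had 32, 36 and 32 with Tet1CD in Vc+ cells, against 101, 79, 83 and 66 without it. In Vc- cells it had 33, 20 and 20 with Tet1CD, against 53, 57, 53 and 46. The groups did not overlap in either medium, and Notch4 fell by 1.12 ± 0.19 and 0.94 ± 0.19 on the log2 scale (limma, adjusted p = 0.000273 and 0.00647), opposite to Notch3 and Notch1 in Vc+ cells. Dlk2 and Jag2 fell in Vc+ cells by 0.87 and 0.51, and Dlk1, a non-canonical ligand, rose by 0.51.

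Among enzymes that modify and cut the receptors, Lfng, the fringe that adds sugar to Notch and alters its choice of ligand, fell by 0.85 ± 0.11 in Vc+ and by 0.49 ± 0.11 in Vc- cells (limma, adjusted p = 3.36e-05 and 0.0104). Of 9 proteases and gamma-secretase subunits, 5 rose and 1 fell in Vc+ cells and 1 rose in Vc- cells. Adam10, which makes the first cut after ligand binding, rose in both, by 0.69 ± 0.10 and 0.46 ± 0.10 (limma, adjusted p = 5.60e-05 and 0.00727). Aph1b, a gamma-secretase subunit, and Furin, which processes the receptor on its way to the surface, rose by 0.52 and 0.44 in Vc+ cells.

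Of 11 genes for endocytosis and ubiquitin transfer, 3 rose and 1 fell in Vc+ cells, with Neurl1a, a ligase acting on ligands, at 1.17 ± 0.21, and Numb, an inhibitor of Notch, at 0.66 ± 0.09 (limma, adjusted p = 0.000422 and 4.30e-05). Of 19 genes of the nuclear complex and its corepressors, 2 rose and 4 fell in Vc+ cells, and 2 rose and 1 fell in Vc- cells. Kat2a, an acetyltransferase, fell by 0.62 and 0.27. The coactivator Maml3 rose in Vc- cells by 0.43 ± 0.10 and not in Vc+ cells (-0.25 ± 0.10), and the difference of the changes, Vc+ minus Vc-, was -0.68 ± 0.14 (limma, adjusted p = 0.00518).

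Further target genes and relatives of the Hes and Hey genes, taken as 1 list, did not move as a block. Bhlhe40 rose by 0.78 ± 0.07 in Vc+ and 0.40 ± 0.07 in Vc- cells (limma, adjusted p = 1.95e-06 and 0.00288). Nrarp, a direct target that feeds back on the receptor, fell in Vc+ cells by 0.58 ± 0.10 (limma, adjusted p = 0.000305), with 0.16 ± 0.10 in Vc- cells, and the difference was -0.74 ± 0.13 (limma, adjusted p = 0.00228). With shp53 in SKOM cells, Nrarp rose by 0.47 and Bhlhe40 fell by 0.39, the only pathway genes called of 50, where 1.02% of all genes rose and 3.21% fell. In MEFs, 3 of 47 listed pathway genes passed a log2 ratio of 0.58 in both shp53 pairs: Bhlhe40 and Hes6 were lower, as 6.46% of all genes were, and Dtx4 was higher, as 6.28% were. With Tet1-CD in MEFs, 2 of 47 passed it in all 3 ratios, where 2.84% of all genes were higher and 2.61% lower. Of these, Dtx3l, a Deltex family ligase, had 149, against 27 with shDnmt1, 41 with Dnmt1 and 63 in the control, and Dlk1 had 478, against 1094, 746 and 759.

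**Figure D4:**
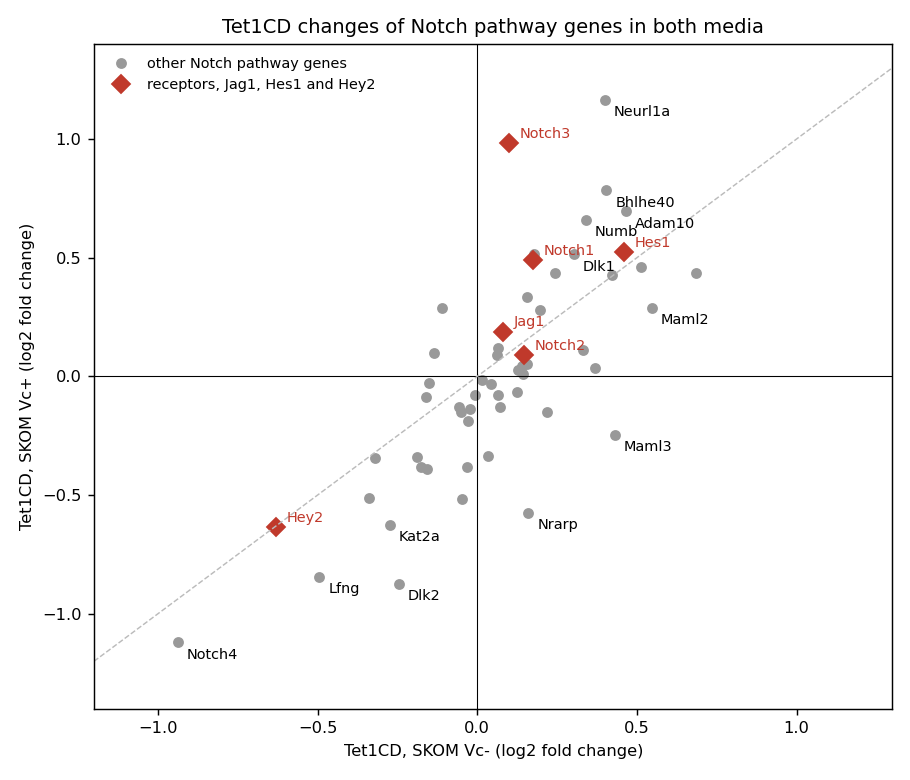
Tet1CD change (log2 fold) in Vc- cells (horizontal) and Vc+ cells (vertical) for 50 other Notch pathway genes (grey) and the 6 genes described here (red diamonds), with a dashed line of equal change. Notch3 lies high above the line at 0.10 and 0.98, Nrarp and Maml3 below it, and Notch4 and Hey2 low on both axes.

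The genes whose pattern was most like each Notch gene were sought among 8594 genes, by Pearson's r of log2(value + 5) centred within each table, as a description. Over all 21 libraries the closest genes were Cdc42bpb (r = 0.99) and Arid5b for Notch1, Dvl1 (0.96) and Trappc10 for Notch2, Eda2r (0.96) and Ano3 for Notch3, Plekhg3 (0.98) and Slc23a2 for Jag1, and Fhl1 (0.98) and Cdc42bpa for Hes1. None of these stayed closest when the 5C library was left out. Then Fas and Fam212b were closest to Notch3 (both r = 0.97), Snapin and Rnf13 to Hes1 (both 0.93), and Rcor3 to Notch1 (0.83), Atp13a3 to Jag1 (0.83) and Kif2a to Notch2 (0.74). Over the 14 SKOM libraries the Notch genes correlated with each other at r between -0.56, for Hes1 and Hey2, and 0.75, for Notch1 and Jag1, and Notch3 and Hes1 at 0.73. The libraries behind these values share their tables and their constructs, shp53 and shDnmt1 as well as Tet1CD. The nearest genes of Notch3 rest on values that include the MEF libraries with shp53, at 23 and 34 against 285 in the control.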

How the data were processed

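RNA of 21 mouse libraries was measured by sequencing and deposited per gene in 3 tables. RNA was extracted with Trizol and sequenced with a TruSeq kit, per the labels' protocols. Each deposited value is a score, a whole number that the authors had normalized within its table. Bowtie, RSEM and mm10 are named in the submitters' processing notes, without versions or roles; how values were normalized and genes filtered, and the strand setting, is not given in the sources used here. Median and highest values are the same in nearly all libraries of a table, so totals carry no depth and no counting error was computed.

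Groups came from sample titles. Values were tested as log2(value + 5) with limma 3.58.1 (R 4.3.3, intensity trend) on the 10711 genes of both SKOM tables with a mean of at least 10, with terms for vitamin C, Tet1CD, their interaction, Dnmt1, shDnmt1 and shp53 (7 residual degrees of freedom), Benjamini-Hochberg adjustment over all genes and an adjusted p under 0.05. Where genes are listed with 2 p-values, these follow the order of the changes. MEF ratios of single libraries and ratios between tables have no test. The code was tested on simulated data. Named genes were all members, up to 3 called genes of the largest change per pathway list and comparison, the markers, and the 2 most correlated genes per member. The members, lists and tests were chosen with earlier results of these data known. Alternatives were the pseudocount, the filter, the trend, centring, other model terms, each table alone and each library left out. Promoters are RefSeq windows (GRCm38.p6), whose starts lie 0 to 124 bases from the files' gene starts.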

Additional observations from a re-analysis of the deposited data

Results flagged for a closer look

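The Tet1CD change of Notch3 differed between media, at 0.98 in Vc+ cells and 0.10 in Vc- cells, a difference of 0.88 on the log2 scale (limma, adjusted p = 0.000985), with the 3 Vc+ libraries at 500 to 554 and the 3 Vc- libraries at 218 to 226.

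Among the 4 Vc+ libraries without Tet1CD, Hes1 had 1 value apart from the rest: 106 in the library labelled Dnmt1, against 125, 126 and 128 in the others. Its gap to the nearest value was 0.864 of the range of the 4. Chance alone flags about 1 in 20 groups in this way.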

How the results depend on the processing

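In Vc+ cells, the Tet1CD calls of Notch3, Notch1 and Hey2, and the difference of Notch3 between media, kept their direction and passed the threshold in every alternative and with each library left out. The number of the 6 Notch genes called ran from 3 to 5 in Vc+ cells, 0 to 2 in Vc- cells and 0 to 2 for shp53 with 1 library left out at a time. Over all genes these fits gave 353 to 1071 higher and 300 to 1169 lower in Vc- cells, 5 to 304 higher and 33 to 544 lower for shp53, and 0 to 7 higher and 3 to 7 lower for shDnmt1.

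In Vc- cells the Notch genes called were 2 in the model reported, 1 without the intensity trend and 0 with every construct given its own effect in each medium, which also left 527 genes lower, against 854. For shp53, 109 genes were higher and 344 lower. These became 68 higher without the trend, 34 higher and 192 lower with own effects, and 0 higher and 1 lower in an additive model without the Tet1CD by vitamin C term, and the Notch genes called were 2, then 1, 1 and 0. For shDnmt1, 1 gene was higher and 5 lower. There were 0 higher with a pseudocount of 1, 3 lower without the trend, 0 higher and 3 lower with own effects, 9 higher and 18 lower with no term for Dnmt1, and 0 higher and 2 lower in the additive model. The cause was not tested. The MEF shp53 ratio of Notch3 was -2.66 with a pseudocount of 20.

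Several changes that did not pass the test turned sign. The difference of Hey2 between media was 0.021 with a pseudocount of 20 and 0.0024 with libraries centred. With 1 library left out it ran from -0.15 to 0.17, that of Notch2 from -0.14 to 0.059 and that of Hes1 from -0.10 to 0.25. The shDnmt1 change ran from -0.010 to 0.13 for Notch1, -0.15 to 0.011 for Notch2, -0.097 to 0.021 for Notch3, -0.017 to 0.030 for Jag1 and -0.064 to 0.18 for Hey2. The shp53 change ran from -0.038 to 0.29 for Notch1, -0.093 to 0.096 for Notch2 and -0.26 to 0.15 for Hes1, and the Dnmt1 change from -0.089 to 0.011 for Notch3 and -0.18 to 0.067 for Hey2. No paired analysis was possible because each combination had 1 library and no number pairs libraries. Depth is not given, so low values such as those of Hey2 and Notch4 have no counting error.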
